A study of Homo sapiens with 9 samples.

Results

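Gene expression at 7 days post-infection (dpi) was compared with that at 3 dpi in U251 cells, an established human glioblastoma line, that carried an sh-RNA against PTBP1. The genes described are those listed under a gene symbol with a mean of at least 1 FPKM (fragments of a transcript relative to its length and to all mapped fragments) over the 6 libraries of the groups sh-Ptbp1-7d and sh-Ptbp1-3d. They number 11385 of the 19932 gene symbols, and of 22295 entries in all. Both groups were infected with the same lentivirus and given a medium for neuronal induction from 2 dpi, in which N2 and B27 supplements, forskolin (which raises cAMP) and dorsomorphin (an inhibitor of BMP receptors and AMPK) took the place of serum. The cells of sh-Ptbp1-7d had therefore spent more days in that medium and more days under knockdown, and these differences cannot be told apart. A further group of 3 libraries, sh-Luci-3d, carried a control sh-RNA against luciferase and had the same medium for the same time as sh-Ptbp1-3d. Its values are given beside those of the groups compared as a reference, and the 9 libraries of the series include no luciferase control of 7 dpi. Each group had 3 libraries of total RNA, and nothing in the labels says whether these came from separate cultures, so the p-values measure the spread between these libraries only.

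PTBP1 is an RNA-binding protein that represses many exons used in neurons, and its loss during development goes with a rise of its paralog PTBP2. Glioblastoma cells such as U251 combine astroglial and mesenchymal features, with a high content of vimentin, and divide without limit in serum. Removal of serum, cAMP and the sensing of foreign nucleic acid each act through known sets of target genes, which makes such sets a convenient way to read a time course.

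At 3 dpi the knockdown libraries held PTBP1 at 66.2, 64.4 and 61.0 FPKM, and at 7 dpi at 49.8, 50.7 and 51.0 FPKM, against 110.7, 111.9 and 124.4 FPKM in sh-Luci-3d. The 3 groups did not overlap, and PTBP1 did not reach a 2-fold difference between the times. The labelled cell type was checked against markers. VIM, CD44, SOX2 and SOX9 were expressed at both times, from 33.3 FPKM for SOX9 at 7 dpi to 4381 FPKM for VIM at 3 dpi on average, GFAP and AQP4 were below 1 FPKM on average, and 9 of 10 immune and blood markers were below 1 FPKM at both times. One library stood apart: 27 gene symbols were at 1 FPKM or more in sh-Ptbp1-3d replicate 3 and below 0.1 FPKM in every other library, against 0 to 3 in each of the other libraries. They include STMN2 at 11.5 FPKM and NEUROD6 at 6.03 FPKM, genes of developing cortical neurons, and 2 of the 27 reached the level set for the genes described here. Neither was called. Without that library 1533 genes were called in place of 1542, with 94 calls lost and 85 gained. The FPKM values carry no steps of whole reads, so depth is unknown and counting error has no interval.

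The times were compared with limma on the log2(FPKM + 0.1) scale, where low genes show less than their full change. A gene was called when its fold change was above 2 and its false discovery rate (FDR, the Benjamini-Hochberg adjusted p over 15551 entries) was below 0.01. Of the 11385 genes, 879 were called higher in sh-Ptbp1-7d (7.72%) and 663 lower (5.82%). Over all 15551 entries tested the shares were 8.31% higher and 5.90% lower. Every library of one time lay above every library of the other for 69.0% of the 11385 genes and for 1541 of the 1542 called. Larger changes were more often rises: 226 genes rose and 107 fell more than 4-fold, and 36 rose and 7 fell more than 16-fold. The median log2 fold change of all 11385 genes was 0.07, with quartiles at -0.33 and 0.45 and a median standard error of 0.12. An exact permutation of 3 libraries against 3 has a smallest two-sided p of 0.1, so single genes are given with limma's adjusted p. Of the 1542 calls, 1047 held under each of 21 alternatives of processing, and 1301 held when any 1 library was left out. The call was lost under 3 or more alternatives for 211 genes. These include CD55, ATF3, ERAP2, ADCY7, TRIB3, KCNQ5, SLC16A3, HSP90B1, BARD1, SOD2, ZIC4 and GAP43, all but ZIC4 and GAP43 with a fold change near 2. Gene lists are described by their counts and medians, with no test of the list. Where 0 genes of a list below were called in a direction, limma's unadjusted p was below 0.05 in that direction for 0 to 4 genes of the list, or for 5 of the autophagy genes, 8 of the complex I subunits, 8 of the tRNA synthetases and 14 of the mitochondrial ribosomal proteins. The splicing and nuclear envelope genes are given with their lists.

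The changes reached the most abundant transcripts. The genes called higher took 3.71% to 4.09% of the summed FPKM of a library at 3 dpi and 20.9% to 21.2% at 7 dpi, while the genes called lower went from 25.2% to 25.7% down to 9.99% to 10.5%. In sh-Luci-3d the same genes took 3.63% to 4.18% and 24.7% to 25.0%. HLA genes with B2M went from 0.213% to 0.247% of the library up to 4.43% to 4.66%, and the ribosomal proteins from 10.1% to 10.4% down to 5.36% to 5.47%. FPKM values are relative to the library, so a transcript that holds its amount per cell falls when others gain, and in bulk RNA fewer cells of a kind and less RNA per cell cannot be told apart.

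**Figure D1:**
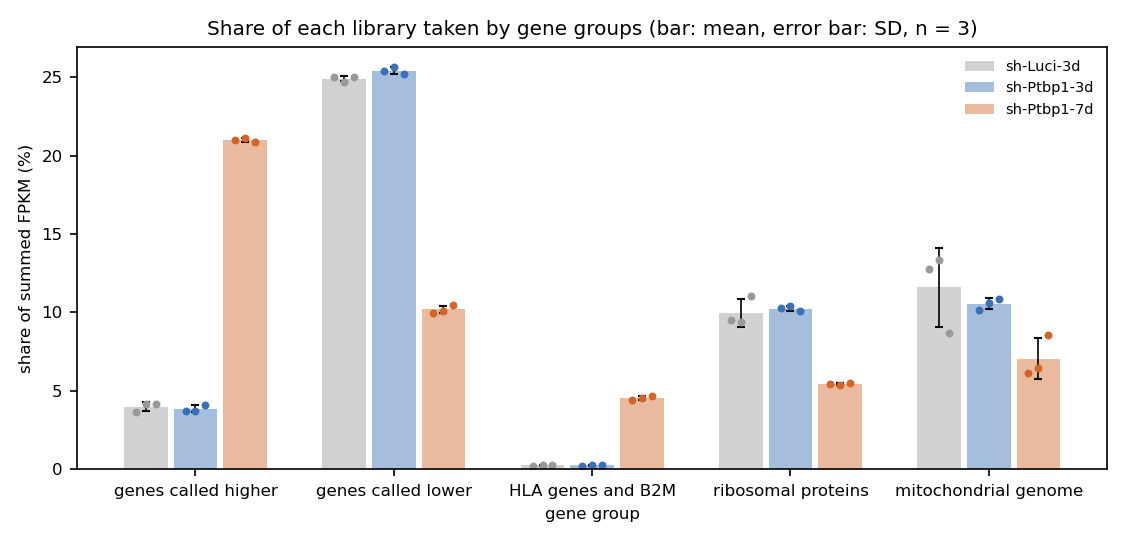
Share of each library's summed FPKM (y axis, percent) taken by 5 gene groups (x axis) in the 3 groups, with bars for means, error bars for SD (n = 3) and points for libraries. The genes called higher sit between 3.63% and 4.18% in all 6 libraries of 3 dpi and between 20.9% and 21.2% at 7 dpi; the first 2 groups of bars hold genes chosen for their difference between the times.

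The largest rises were in genes of antigen presentation and antiviral defence. Cells that sense foreign nucleic acid or interferon switch on enzymes that degrade viral RNA, proteins that block viral entry, and the HLA class I pathway, in which peptides cut by the immunoproteasome are pumped by TAP into the endoplasmic reticulum and loaded on HLA molecules with B2M. HLA-B (chr6:31269491-31357188 on GRCh38, as annotated by GENCODE v29) was at 16.2, 19.3 and 23.3 FPKM at 3 dpi and at 4465, 4497 and 4689 FPKM at 7 dpi, a log2 fold change of 7.87 (SE 0.162, limma adjusted p = 6.52e-10). In sh-Luci-3d it was at 13.5, 19.7 and 20.7 FPKM, so all 6 libraries of 3 dpi lay in one low range. The peptide pump subunit TAP1 was at 27.3, 26.9 and 33.3 FPKM and then at 359.1, 359.8 and 329.7 FPKM. B2M, the invariant chain of class I molecules, rose from 636.1 ± 31.8 to 5651 ± 434 FPKM (SD, n = 3 each), and the groups of both genes were far apart. All 5 HLA genes at this level were called higher, with a median log2 fold change of 4.76. Their near-identical stretches share reads, and how the deposited values divided these is not given in the sources used here.

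Of 16 genes of antigen processing, 14 were called higher and 0 lower, with a median log2 fold change of 1.32 against 0.07 over all genes. PSMB9, a catalytic subunit of the immunoproteasome, rose 20.7-fold from 4.09 ± 1.09 to 84.9 ± 11.5 FPKM (SD, n = 3 each). Its partners PSMB8 and PSMB10 rose by log2 fold changes of 1.21 and 1.11. NLRC5, the transactivator of class I genes, rose by 2.16, and the peptide-trimming enzymes ERAP1 and ERAP2 by 1.52 and 1.04. The other 2 genes of the list were TAPBP at 0.66 and CANX at -0.30.

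The sensors themselves were called higher in part. Of 17 genes of nucleic acid sensing, 9 were called higher and 0 lower, with a median of 1.40. Among sensors of double-stranded RNA, TLR3 was at 1.74, 2.04 and 2.14 FPKM and then at 13.2, 13.3 and 12.8 FPKM, IFIH1 rose by a log2 fold change of 2.48 and DDX58 by 1.75. OAS2, OASL, OAS1 and OAS3, of the oligoadenylate synthetase family that activates RNase L, rose by 4.17, 3.15, 2.79 and 1.47. MAVS, the adaptor downstream of DDX58 and IFIH1, was at -0.93 and the kinase IKBKE at -0.90, neither past the fold threshold. Of the transcription factors that carry interferon signals, IRF1 rose by 1.93 and STAT2 by 1.50, while IRF9 was at 0.86.

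Among antiviral effectors, IFI6, which protects the endoplasmic reticulum from viral remodelling, had the largest gain of FPKM of all genes. It was at 780.5, 747.5 and 859.8 FPKM at 3 dpi and at 11650, 11240 and 10580 FPKM at 7 dpi (log2 fold change 3.81, SE 0.238, limma adjusted p = 4.62e-07), and its sh-Luci-3d libraries spread from 446.8 to 1051 FPKM. Of 16 genes with IFI, IFIT or IFITM symbols, 14 were called higher. IFITM1, which blocks fusion of viruses with membranes, rose 35.2-fold and LY6E 87.4-fold. Several genes that were near 0 at 3 dpi appeared. RTP4 was at 0, 0.151 and 0.247 FPKM and then at 14.0, 13.9 and 15.9 FPKM. IDO1, which breaks down tryptophan, was at 0.286, 0.226 and 0.394 FPKM and then at 14.2, 12.7 and 14.7 FPKM. XAF1, MX2, APOL1, APOL3 and CASP1, the protease that matures interleukin-1β, rose by log2 fold changes of 6.10, 4.85, 5.24, 4.94 and 4.76. Markers of immune and blood cells stayed near 0: PTPRC was at most 0.0275 FPKM in any of the 6 libraries, CD3E and AIF1 were listed at 0, and the summed level of the 10 markers was 10.9 to 11.4 FPKM at 3 dpi and 16.3 to 19.0 FPKM at 7 dpi, nearly all of it CD68.

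Stretches of 2 promoters from this list are shown because both hold overlapping copies of the spaced repeat GAAANNGAA, to which interferon regulatory factors bind. They are taken from RefSeq (GRCh38.p14), run 5′ to 3′ on the strand of the gene, and have the repeat, or its reverse complement, in capitals. TAP1 is at chr6:32853811-32853849 (minus strand) and B2M at chr15:44711361-44711399 (plus strand), and the first copy starts 133 and 144 bases before the start of the gene.
TAP1: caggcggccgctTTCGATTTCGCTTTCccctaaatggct
B2M: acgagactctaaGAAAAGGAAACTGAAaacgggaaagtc
A search of both strands of 300-base promoters (250 bases before to 50 after the start) found the repeat in 8 of the 14 promoters on file for the antigen processing list, or 57.1%. It was in 13.0% of the promoters of genes called higher, in 7.13% of those of genes called lower, in 5.81% of those of genes not called, and in 8.29% of all 27305 promoters on file.

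Complement and cytokine genes went both ways. Of 20 genes of complement and coagulation, 7 were called higher and 4 lower. The complement proteases C1R and C1S rose by log2 fold changes of 4.61 and 2.74, and CFB by 4.55. C4A and C4B rose by 2.81 and 2.79, but are near-identical copies whose reads cannot be told apart. CD55 and CD59, which shield the cell from complement, fell by 1.07 and 1.22, and the plasminogen activator PLAU fell by 1.30. Of 13 cytokines and chemokines, 7 were called higher and 2 lower. CCL5 was at 0.290, 0.359 and 0.155 FPKM and then at 5.64, 7.42 and 5.45 FPKM. CXCL16 rose by 4.06, CSF1 by 2.60, TNFSF10 by 2.02, IL6 by 1.58, CXCL8 by 1.41 and LIF by 1.40. IL11 fell by 2.60, and CCL26, at 2.19, 1.91 and 3.19 FPKM at 3 dpi, was listed at 0 in each library of 7 dpi.

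The unfolded protein response enlarges the folding capacity of the endoplasmic reticulum when secretory load grows: ATF6 and XBP1 switch on chaperones such as HSPA5 and the machinery that removes misfolded proteins. Of its 22 genes, 11 were called higher and 0 lower, and the median was 0.97 on the log2 scale. Over the alternatives of processing 6 to 13 were called higher. HSPA5, the central chaperone, was at 119.9, 127.2 and 118.8 FPKM at 3 dpi and at 338.6, 356.7 and 353.2 FPKM at 7 dpi (log2 fold change 1.52, SE 0.067, limma adjusted p = 4.50e-08), and the groups lay far apart. XBP1 rose from 25.1 ± 2.76 to 76.0 ± 6.60 FPKM (SD, n = 3 each). The disulfide isomerases PDIA4 and PDIA3 rose by 1.38 each, the co-chaperone DNAJB9 by 1.94, and SYVN1 and HERPUD1, which export misfolded proteins for degradation, by 1.28 and 1.07. ATF6 itself was at 0.00 and the sensor ERN1 at 0.88, neither called. The neighbouring stress programmes held fewer calls. Of 27 genes of the integrated stress response 3 were called higher (DDIT3, ATF3 and TRIB3) and 2 lower (SLC7A5 and SLC7A11). These counts lie near the shares over all genes, 7.72% higher and 5.82% lower. At an FDR below 0.01 and any fold change, 11 were higher and 8 lower. The calls of ATF3 and TRIB3 were lost under 3 and 4 alternatives of processing. Of 28 heat shock and chaperonin genes 0 were called higher and 1 lower, HSPB1, which fell by 1.55. The median of these 28 genes was -0.36, and 15 were lower and 1 higher at an FDR below 0.01.

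Stretches of 2 promoters are shown because they hold the ER stress element, CCAAT followed after 9 bases by CCACG, at which NF-Y and ATF6 bind together. The fixed letters are in capitals, and XBP1 (chr22:28800591-28800633) and HSPA5 (chr9:125241379-125241421) both lie on the minus strand, with the element 52 and 66 bases before the start of the gene.
XBP1: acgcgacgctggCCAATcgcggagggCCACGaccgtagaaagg
HSPA5: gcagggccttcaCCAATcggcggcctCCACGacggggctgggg
On either strand the element was in 22 of all 27305 promoters (0.0806%) and in 6 of the 21 promoters of the unfolded protein response list (28.6%), those of CALR, CANX, CRELD2, HSP90B1, HSPA5 and XBP1. All but CANX were called higher. It was in 6 of 662 promoters of genes called higher and in 0 of 533 of genes called lower. The element was searched for after the values were seen.

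**Figure D2:**
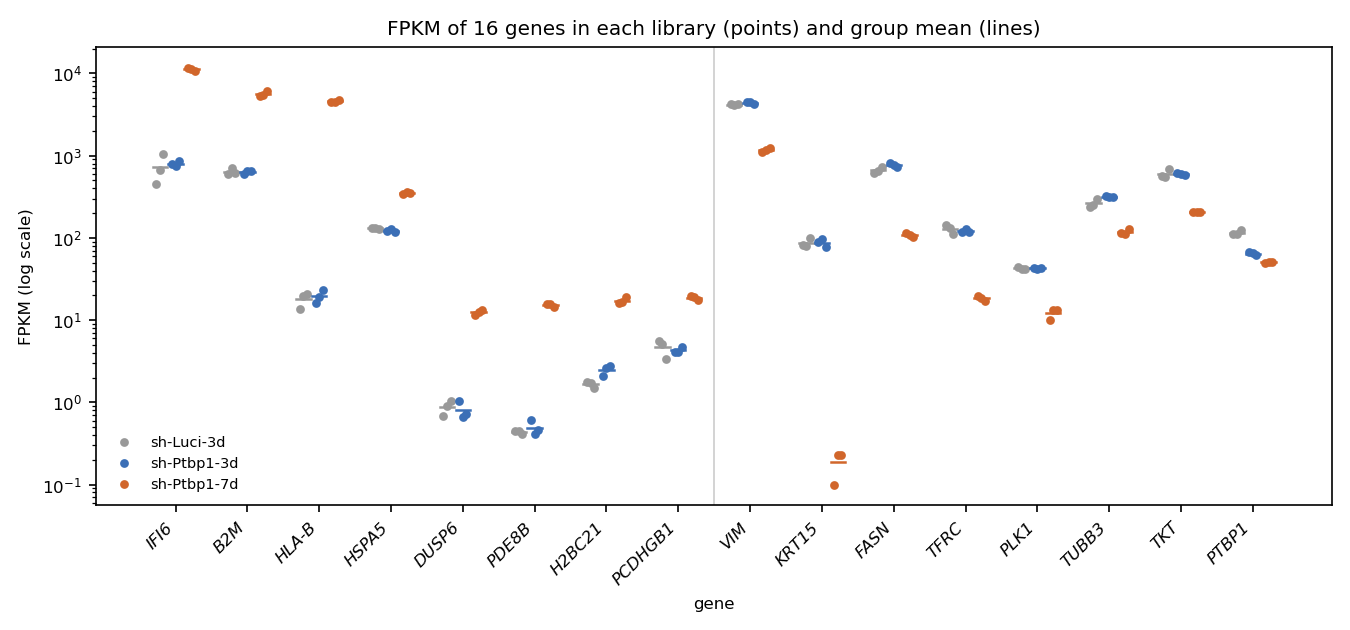
FPKM (y axis, log scale) of 16 genes (x axis) in each library, with short lines at the group means; 8 genes called higher are left of the vertical line, and 7 called lower and PTBP1 are right of it. HLA-B sits at 13.5 to 23.3 FPKM in the 6 libraries of 3 dpi and at 4465 FPKM or more at 7 dpi, and KRT15 falls from 78.3 FPKM or more to 0.230 FPKM or less.

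Many genes that feed back on the ERK pathway rose. Growth factor receptors signal through RAS and ERK, and active ERK induces phosphatases (DUSP), receptor antagonists (SPRY, SPRED) and ETS factors (ETV1, ETV4, ETV5), whose levels are often used as a readout of the pathway. Of 28 such genes, 16 were called higher and 0 lower, with a median of 1.08. DUSP6, the phosphatase of ERK itself, was at 1.03, 0.657 and 0.714 FPKM and then at 11.7, 12.5 and 13.2 FPKM. SPRY4 was at 1.98, 1.85 and 2.06 FPKM and then at 29.5, 27.9 and 24.8 FPKM. ETV5 rose from 3.46 ± 0.112 to 41.9 ± 2.24 FPKM (SD, n = 3 each; log2 fold change 3.56, limma adjusted p = 1.05e-09). The groups did not overlap for any of the 3 genes. DUSP4, SPRY1, SPRY2, ETV1 and ETV4 rose by 2.73, 3.53, 2.62, 2.96 and 2.67, and the immediate early genes FOS and EGR1 by 2.45 and 2.42. PHLDA1 stood at -0.02 and MYC at -0.62, neither called. Upstream, the ligand TGFA rose by 3.32 and LRIG1, which removes EGF receptors from the membrane, from 7.16 ± 0.290 to 75.4 ± 5.38 FPKM (SD, n = 3 each). The receptor MET fell by 1.22 and the co-receptor NRP2 by 2.75.

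Genes that limit cAMP and G protein signals rose in part. Phosphodiesterases hydrolyse cyclic nucleotides and RGS proteins shorten the active state of G proteins. Of 13 phosphodiesterases, 6 were called higher and 0 lower, with a median of 0.56. PDE8B, specific for cAMP, was at 0.612, 0.409 and 0.455 FPKM and then at 15.5, 15.7 and 14.5 FPKM. PDE10A, PDE4B, PDE3A and PDE4D rose by 2.66, 2.26, 1.69 and 1.18, and RGS2 by 3.38, from 3.73 ± 0.087 to 39.8 ± 3.55 FPKM (SD, n = 3 each). In the wider list of G protein-coupled receptor feedback, 7 of 31 genes were called higher and 2 lower (GRK3 and ADCY7). Of 15 genes of the glucocorticoid response, 5 were called higher and 0 lower, among them the metallothioneins MT2A and MT1X, which bind zinc and copper, with 1.28 and 1.79. B27 supplements contain a corticosteroid, and the part of any one component of the medium was not tested.

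Several secreted factors of the nervous system and of the insulin-like growth factor (IGF) axis were among the large rises. IGFBP4, which binds and holds IGF, was at 1.21, 0.886 and 1.62 FPKM and then at 59.7, 62.1 and 61.5 FPKM. PAPPA, the protease that cleaves IGFBP4, rose by 1.62, IGFBP7 by 2.29, and IGFBP5 and IGFBP6 fell by 1.57 and 1.35. SCG2, a granin of secretory granules, was at 1.89, 1.87 and 1.94 FPKM and then at 50.9, 51.5 and 45.9 FPKM. The heparin-binding growth factors MDK and PTN rose by 3.34 and 2.05. TXNIP, which restrains glucose uptake and is induced by FOXO and by glucose, rose from 10.9 ± 2.14 to 230 ± 14.3 FPKM (SD, n = 3 each), and NT5E, which makes adenosine from AMP outside the cell, by 4.42. Of 23 genes of FOXO and insulin feedback 7 were called higher and 4 lower, so TXNIP, TRIB2 and FOXO1 rose beside falls of FBXO32, FOXO3, SESN3 and SOD2.

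Genes of excitability were few at this level of expression. Of 13 genes listed as voltage-gated channels, 4 were called higher and 0 lower. The list also holds potassium channel genes of other kinds, such as KCNK2, KCNE4 and KCNJ2. KCNK2, a background potassium channel that cAMP and stretch regulate, rose by 3.25, KCNE4 by 2.38, KCNJ2 by 2.09 and the voltage-gated KCNQ5 by 1.06. Of 19 synaptic genes, 3 were called higher and 0 lower, among them the scaffold genes SHANK3 and DLG4 with 1.26 and 1.25. Of 25 neuronal transcription factors, DLX1, DLX2 and ZIC4 were called higher and 0 lower, and none of the 3 with a pseudocount of 1. Over the alternatives 0 to 5 neuronal transcription factors and 1 to 5 synaptic genes were called higher. Among the 9 neuronal markers, 4 were called lower (TUBB3, NEFL, NEFM and GAP43) and 0 higher. MAP2 rose by 0.94, from 20.3 to 38.9 FPKM on average (limma adjusted p = 0.00058), without overlap but short of the fold threshold. NEFM was below 1 FPKM at both times, and 6 of the 9 markers were below 1 FPKM at 7 dpi. The summed level went from 553.7 to 569.2 FPKM down to 246.6 to 254.0 FPKM. Most of that fall was in TUBB3 (316.9 to 118.2 FPKM on average) and NEFL (216.2 to 92.7 FPKM). GAP43 was at 0.602, 0.987 and 3.88 FPKM at 3 dpi, with its highest value in the library that stands apart, and at 0.0883, 0.334 and 0.187 FPKM at 7 dpi. Its call was lost without sh-Ptbp1-7d replicate 1 or replicate 3.

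The histone, protocadherin and zinc finger families, which sit in clusters on the chromosomes, held many rises. Of 28 histone genes, 15 were called higher and 1 lower, with a median of 1.26. H2BC21, which encodes a histone H2B, was at 2.07, 2.59 and 2.79 FPKM and then at 16.3, 16.4 and 18.9 FPKM. H2AC6 by 2.33 and H1-2 by 1.55. The variant H2AZ2 fell by 1.16. H4C14 and H4C15, H3C14 and H3C15, and H2AC18 and H2AC19 are near-identical copies with near-identical values, so these 6 calls stand for at most 3 measurements. Replication histone transcripts lack a poly(A) tail, and the selection of RNA for these libraries is not given in the sources used here.

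Protocadherins are cell adhesion proteins of which each neuron displays its own set, and most are encoded in 3 clusters on chromosome 5. Of 22 at this level, 13 were called higher and 0 lower, with a median of 1.13. PCDHGB1 was at 4.09, 4.12 and 4.71 FPKM and then at 19.6, 19.0 and 17.7 FPKM. PCDHB7 rose by 2.96, PCDHGA1 by 2.44 and PCDHGB2 by 1.77, and outside the clusters PCDH1, PCDH9 and PCDH20 rose by 2.15, 1.74 and 1.56. The gamma genes share their last exons, so reads in these cannot be assigned to one gene.

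The zinc finger genes with ZNF symbols, mostly repressors that bind transposons and other DNA through arrays of fingers, were at 1 FPKM or more for 404 genes. Of these, 64 were called higher and 2 lower, 355 had a log2 fold change above 0, and the median was 0.57. On chromosome 19, where many of them stand in clusters, 47 of 205 ZNF genes were called higher (22.9%) and 0 lower, against 17 of 199 on the other chromosomes (8.54%). Genes of chromosome 19 without a ZNF symbol were called higher in 8.07% of 644. Genes with a mean of 1 to 5 FPKM were called higher in 11.1%, with a median of 0.18, and the ZNF genes of chromosome 19 had a median level of 3.79 FPKM. ZNF766 had the largest rise, 2.03, but its libraries of 7 dpi were at 5.65, 14.3 and 6.15 FPKM.

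Among the falls, the genes of the mesenchymal and epithelial cytoskeleton were prominent. KRT15, a keratin of basal epithelia, had the largest fall of all genes, from 87.6, 95.9 and 78.3 FPKM at 3 dpi to 0.0998, 0.230 and 0.230 FPKM at 7 dpi (log2 fold change -8.29, SE 0.183, limma adjusted p = 7.15e-10). In sh-Luci-3d it was at 82.3, 78.7 and 99.0 FPKM. KRT81 and KRT7 fell by 2.47 and 2.65, and the other keratins KRT8 and KRT18 of the epithelial markers were at -0.27 and -0.32. VIM, the main intermediate filament of these cells, was at 4446, 4488 and 4210 FPKM and then at 1094, 1163 and 1249 FPKM. No library of one time reached the range of the other. Of 18 genes of keratins and junctions, 5 were called lower and 3 higher, the largest rise being that of JUP with 2.30. Of 27 actomyosin genes, 7 were called lower and 1 higher, ACTA2 with 1.22, and the median was -0.50. FLNA, which crosslinks actin, fell from 459 to 105.8 FPKM on average, TAGLN2 by 2.21, CALD1 by 2.19, MYLK by 1.75 and TPM1 by 1.60. The scaffold AHNAK fell by 3.31. Of 11 S100 calcium-binding proteins, 5 were called lower and 0 higher, S100A6 from 2812, 2856 and 2520 FPKM to 991.9, 876.8 and 729.1 FPKM.

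Of 32 genes of tubulins and microtubule proteins, 10 were called lower and 1 higher, with a median of -0.70 and 10 genes above 0. Over the alternatives of processing 6 to 11 were called lower. TUBB3, the β-tubulin used as a neuronal marker and common in glioma cells, was at 322.2, 314.4 and 314.2 FPKM and then at 115.7, 111.7 and 127.1 FPKM. TUBA1A, TUBA1B, TUBB and TUBB6 fell by 1.25, 1.21, 1.07 and 1.34, and the microtubule-binding proteins DCLK1 and MAP1B by 2.73 and 1.57. Coding sequences of tubulin genes are alike, so reads may be divided among them. DCLK2 rose by 1.46.

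Many genes of mitosis were lower. Kinesins carry chromosomes along the spindle, and PLK1, AURKA, AURKB and BUB1 are kinases that order the steps of division. Of 31 genes of kinesins and spindle, 15 were called lower and 0 higher, with a median of -0.84. PLK1 went from 42.7 ± 0.743 to 12.1 ± 1.85 FPKM (SD, n = 3 each; log2 fold change -1.82, SE 0.105, limma adjusted p = 2.90e-07). KIF20A fell by 1.88, NUSAP1 by 1.65, BUB1B by 1.63 and AURKA by 1.43. Of the kinesins of axonal transport, KIF5A stood at 0.54, KIF5C at 0.03 and KIF3A at -0.05, none of them called. KIF1C, a further transport kinesin, was called lower with -1.11. Of 30 genes of nucleotide synthesis, 6 were called lower and 0 higher, among them the S-phase enzymes TK1 and TYMS, which fell by 2.03 and 1.53. Of 32 DNA repair genes 1 was called lower and 1 higher, BARD1 with 1.02. CDKN1A, an inhibitor of cyclin-dependent kinases, rose by 1.13 and BTG2, which restrains proliferation, by 2.56.

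Stretches of 2 promoters are shown because they hold the cell cycle homology region (CHR), TTTGAA, at which the DREAM and B-MYB complexes act on genes of late cell cycle. The motif is in capitals. PLK1 is at chr16:23678848-23678877 and NUSAP1 at chr15:41332882-41332911, both on the plus strand. The motif of PLK1 starts 29 bases before the start of the gene, and that of NUSAP1 lies 13 bases after it.
PLK1: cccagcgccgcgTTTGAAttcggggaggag
NUSAP1: tggcgccagggaTTTGAAccgcgctgacga
Either strand held the motif in 14 of the 27 promoters on file for the list (51.9%). It was in 16.9% of the promoters of genes called lower, in 10.7% of those of genes called higher, in 8.91% of those of genes not called and in 15.4% of all promoters. The CCAAT box (CCAAT), which is also the first part of the ER stress element, was in 85.7% of the promoters of the unfolded protein response, in 36.8% of those of genes not called and in 35.7% of all. The CLEAR core TCACGTGA, bound by TFEB, was in 26.3% of 19 lysosome promoters, in 2.23% of those of genes not called and in 1.04% of all, and of 30 lysosome genes 3 were called higher and 2 lower. The sites of CREB (TGACGTCA), E2F (TTCCCGCC) and ETS factors (CCGGAAGT) were in 3.17%, 4.08% and 5.14% of the promoters of genes called higher, in 2.25%, 5.25% and 3.56% of those of genes called lower, in 3.59%, 5.55% and 10.5% of those of genes not called, and in 1.98%, 3.18% and 4.43% of all.

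Genes of lipid synthesis, reducing power and iron storage were among the falls. FASN, which makes palmitate, was at 816.3, 769.4 and 731.6 FPKM and then at 114.4, 106.7 and 101.4 FPKM (log2 fold change -2.84, SE 0.090, limma adjusted p = 5.66e-09). Of 27 genes of fatty acid synthesis and storage, 10 were called lower and 0 higher, with a median of -0.77. ACLY and ACACA, the steps before FASN, fell by 1.37 and 1.38, and the desaturases SCD, FADS1 and FADS3 by 1.79, 1.40 and 2.02. SREBF1, the regulator of this set, stood at -0.79 and was not called. Of 24 glycolysis genes, 3 were called lower (PKM, GAPDH and the lactate exporter SLC16A3) and 1 higher, the neuronal glucose transporter SLC2A3 with 1.29. The median of the 24 was -0.55, with 3 genes above 0, and 15 were lower and 2 higher at an FDR below 0.01.

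NRF2 is the factor that raises antioxidant genes under oxidative or electrophilic stress. Of 28 genes of NRF2 and glutathione, 12 were called lower and 1 higher, with a median of -0.88. The gene called higher was NFE2L2, which encodes NRF2, with 1.11. TKT, of the pentose phosphate pathway, was at 620.1, 596.1 and 575.9 FPKM and then at 204.9, 204.7 and 206.5 FPKM. PGD, which makes NADPH in the same pathway, fell by 1.13, the thioredoxin pair TXN and TXNRD1 by 1.39 and 1.11, HMOX1 by 1.49 and the cystine carrier SLC7A11 by 1.81. The glutathione-synthesis genes GCLM and GCLC were at -0.69 and 0.17, neither called. The iron store proteins FTL and FTH1 fell by 1.43 and 1.57, and TFRC, the receptor that imports iron, was at 118.8, 127.8 and 117.3 FPKM and then at 19.7, 18.7 and 17.1 FPKM. MT1F, MT1X and MT2A went the other way in the same list of metal genes.

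Several retinoid genes and the thyroid hormone gene DIO2 fell, while other genes of the same list rose. STRA6 imports retinol, ALDH1A3 makes retinoic acid, RARB is a receptor for it and its classical target, and DIO2 activates thyroid hormone. Of 15 such genes, 6 were called lower and 4 higher. STRA6 was at 54.8, 58.1 and 52.1 FPKM and then at 4.72, 4.11 and 4.47 FPKM. RARB was at 40.4, 44.6 and 38.6 FPKM and then at 4.38, 4.13 and 4.72 FPKM. DIO2 fell by 2.63, ALDH1A3 by 2.29, DHRS3, which turns retinal back to retinol, by 1.85, and CYP26B1, which degrades retinoic acid, by 1.23. Of the 4 that rose, PLAAT4, with 5.23, is known as a gene induced by retinoic acid and by interferon, and HR, with 3.02, encodes a corepressor that binds the thyroid hormone receptor. THRA, which encodes a thyroid hormone receptor, was also called higher, by 1.03 to 1.22 over the main fit and the alternatives. RARA, RARG, RXRA and RXRB lay between -0.37 and 0.55.

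Transcripts of matrix genes changed in both directions. Of 20 collagens, 3 were called higher and 3 lower, and of 25 matrix glycoproteins and crosslinking genes 6 and 6. LOXL2, which crosslinks collagen, fell from 181 to 25.0 FPKM on average, while its relatives LOX, LOXL1 and LOXL3 rose by 1.89, 1.12 and 1.68. COL6A3, COL9A3 and COL18A1 fell by 4.37, 3.56 and 2.19, and COL1A2, COL14A1 and COL11A1 rose by 1.11, 1.50 and 1.91. FBLN1, TNC and BGN rose by 2.27, 1.61 and 1.77, and THBS1, SPP1 and FBN1 fell by 1.83, 1.81 and 2.09. Of 19 metalloproteases and inhibitors, 3 were called higher and 4 lower. MMP2, a gelatinase, rose by 2.35 and its inhibitor TIMP1 by 1.16, and ADAM12, TIMP4 and ADAM9 fell by 1.93, 1.90 and 1.28. Of 19 integrins and laminins, 6 were called lower (LAMB3, LAMA4, ITGA4, ITGAV, ITGB8 and ITGB4) and 2 higher. IL7R fell from 14.0, 14.3 and 14.8 FPKM to 0.762, 1.06 and 0.626 FPKM.

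Of 80 cytosolic ribosomal proteins, 35 were called lower and 0 higher, with a median of -0.92 and no value above 0. RPS19 was at 712.2, 730.5 and 722.0 FPKM and then at 184.9, 169.1 and 189.4 FPKM. EEF1A1, which brings aminoacyl-tRNA to the ribosome, fell by 1.63, and EEF1G, a subunit of another elongation factor complex, by 2.04. In all, 20 of 39 translation factors had an FDR below 0.01 and a negative change, though only 2 passed the fold threshold. The RNA helicase gene EIF4A2 of the same list rose by 1.63, and of 22 tRNA synthetases 1 was called higher, WARS1 with 1.28, and 0 lower. Of 78 mitochondrial ribosomal proteins 1 was called lower and 0 higher, with a median of -0.13, and of 48 complex I subunits 1 and 0, with -0.15. At an FDR below 0.01, 18 of these mitochondrial ribosomal proteins were lower and 8 higher, and 7 of the complex I subunits were lower and 3 higher. Of the 13 mRNAs encoded by mitochondrial DNA, 4 were called lower and 0 higher, among them MT-ATP6, at 5909, 6006 and 5588 FPKM and then at 1961, 1981 and 2585 FPKM, with the highest value of 7 dpi in replicate 3. Many ribosomal protein genes have processed copies in the genome, and how such reads were counted is not given in the sources used here.

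Some machinery held its level within the fold threshold. None of 31 SR proteins and hnRNPs and none of 29 genes of the nuclear envelope and pores were called by limma. In these lists 11 and 12 genes had an FDR below 0.01 with a smaller fold change, and 20 (5 higher and 15 lower) and 16 (2 and 14) had an unadjusted p below 0.05. Of 30 autophagy genes only GABARAPL1 was called, higher by 1.33. At an FDR below 0.01 and any fold change, 9 autophagy genes were higher and 3 lower, and the median was 0.23. The genes called had transcripts of similar length and composition: the median length was 1124 bases for those higher, 963 for those lower and 1008 for the rest, with GC contents of 50.5%, 51.4% and 49.2%.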

How the data were processed

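RNA-seq of U251 cells was analysed in 9 libraries, 3 each of sh-Luci-3d, sh-Ptbp1-7d and, as the baseline, sh-Ptbp1-3d, as labelled. The authors extracted total RNA, aligned filtered reads and deposited FPKM values per gene and library. The submitters' processing notes name HISAT2 and GRCh38, and loci assembled by StringTie stand among the entries. The counting program, the selection of RNA and the depth are not given in the sources used here. FPKM spreads a library's fragments over its genes, so a rise of abundant transcripts lowers all others.

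From the FPKM values, log2(FPKM + 0.1) was fitted with limma 3.58.1 in R 4.3.3 for the 15551 entries with a mean of at least 0.1 FPKM, with all 9 libraries in one model of 3 groups and an intensity trend. Calls needed an FDR below 0.01 with more than 2-fold change. The script was checked on data with known answers. Named genes were the 15 largest rises and falls of fold and the 10 largest gains and losses of FPKM among called genes without overlap, up to 3 rises and 3 falls of each of 55 gene lists, the largest rise and fall of each of 61 symbol families, and further list genes where their role is described. The genes described, the lists, the families and the motifs were chosen with earlier results of these data known. Genes named outside the lists and the rule were chosen after their values were seen. Gene positions are from GENCODE v29 and promoters from RefSeq (GRCh38.p14), which held 9267 of the 11385 genes. Alternatives were other pseudocounts, filters, scalings and thresholds, the 6 libraries alone, a fit without the trend, a replicate block, and leaving out each library. A table of assembled loci was not used. Some genes that the rule named are not reported here.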

Additional observations from a re-analysis of the deposited data

How the results depend on the processing

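The count of 1542 called genes lay between 1159 (a pseudocount of 1) and 1653 (TPM) over 21 alternatives, and no alternative moved the total, the rises or the falls by more than 1.5 times. Leaving out one library at a time gave 1504 to 1558 called genes, 841 to 911 higher and 635 to 689 lower. TPM moved the median log2 fold change of all genes by 0.10 and gave 1084 higher and 569 lower genes, whereas median-ratio scaling gave 739 higher and 790 lower, and quantile normalization 754 and 750. The replicate numbers did not pair the libraries (correlations of same-numbered deviations -0.01, 0.02 and 0.06). With the replicate number as a block 1534 genes were called, 1533 of them among the 1542. Of 282 genes picked by the naming rule, 245 kept their side of the thresholds under all 21 alternatives and 0 changed direction. The number of genes called in a list moved by more than 1.5 times for higher genes of the integrated stress response (3, from 1 to 5) and Wnt genes (2, from 1 to 4), and for lower genes of FOXO and insulin feedback (4, from 2 to 6) and G protein-coupled receptor feedback (2, from 0 to 2), beside the unfolded protein response, the tubulins and further lists with 5 or fewer called genes in that direction. JAG1, DDB2, FAS, CRY2, HS6ST2 and FZD7, all with a fold change near 2, are among the 211 genes that lost their call under 3 or more alternatives. NME1-NME2, a readthrough of neighbouring genes, was at 0, 24.3 and 0 FPKM at 7 dpi and lost its call under 13 alternatives. Medians that changed sign all lay within 0.11 of 0. They were those of collagens (TPM), YAP and TEAD targets (TPM, and without sh-Ptbp1-7d replicate 3), selenoproteins (TPM, and without sh-Ptbp1-7d replicate 1), p53 targets (median-ratio and quantile scaling, and without sh-Ptbp1-7d replicate 1), fatty acid oxidation (both scalings, and without sh-Ptbp1-3d replicate 3 or sh-Ptbp1-7d replicate 2 or 3), cilia (quantile) and mesenchymal factors (median-ratio). Depth is unknown, so changes of genes near 0 FPKM are the least certain.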

Other observations

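Single genes of developmental signalling pathways changed in both directions. Over all genes 7.72% were called higher and 5.82% lower, and the Wnt counts below lie near these shares. Of 17 Notch genes, 5 were called higher and 3 lower in sh-Ptbp1-7d: the ligand DLL1 rose by a log2 fold change of 1.98 and the targets HES4 and HEY1 by 1.48 and 1.23, while the ligand JAG1, HES6 and LFNG, which modifies Notch receptors, fell by 1.02, 1.49 and 2.32. Of 22 Wnt genes, 2 were called higher, the receptor FZD7 and the secreted inhibitor SFRP1, and 2 lower, WNT3 and the inhibitor DKK1, which fell from 60.2 to 15.9 FPKM on average. Of 26 genes of the BMP and TGF-beta response, 4 were called higher and 3 lower. ID1, a direct target of BMP signalling, fell by 1.33 and PMEPA1 by 1.77, and FST, which binds activin, MSX1 and the ligand TGFB2 rose by 1.61, 1.44 and 1.13. SMO, the signal transducer of Hedgehog in cilia, rose by 2.12.

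Of 13 ephrins and Eph receptors 3 were called higher and 0 lower, and of 16 sulfotransferases 4 and 0, among them HS6ST1 and HS6ST2, which sulfate heparan chains. HS6ST1 rose by 1.57 and HS6ST2 from 14.0 to 28.3 FPKM on average. In these families 9 and 11 genes were higher, and 0 were lower, at an unadjusted limma p below 0.05. Of 19 clock genes, the repressors BHLHE40 and BHLHE41 and the activator ARNTL2 fell by 1.26, 1.23 and 1.40, and CRY2 and NPAS2 rose by 1.03 and 1.68. GDF15, a stress hormone in the p53 list, rose from 17.1 to 85.7 FPKM on average, and the death receptors TNFRSF10B and FAS by 1.37 and 1.03, beside falls of DDB2 and ZMAT3 by 1.07 and 1.28. ABCC2, an exporter of conjugates, fell by 3.04.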
